A study of Mus musculus with 22 samples.

Results

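The NKG2D receptor complex and its ligands were followed through 8 genes of the 78298 in the deposited count tables. They were chosen by gene symbol: Klrk1, which encodes the receptor NKG2D, its adaptor genes Hcst and Tyrobp, and the ligand genes Raet1d, Raet1e, Ulbp1, H60b and H60c. All 8 symbols matched 1 gene each. The series holds 22 messenger RNA sequencing libraries from mice and asks whether sex shapes the immunity of natural killer (NK) cells against pancreatic cancer. Splenic NK cells were sequenced after 24 h alone in culture with interleukin-2 (monoculture) or fresh and untreated, with 2 libraries from female and 2 from male donors in each condition. Further libraries came from co-cultures of NK cells and Panc02 cells, a mouse pancreatic cancer line, kept for 24 h with interleukin-2. There were 2 with female and 2 with male NK cells, and the labels give their cell type as primary NK cells. The remaining ones came from Panc02 tumours grown as allografts (4 from female and 4 from male hosts) and from Panc02 cells cultured alone (2 libraries). No transgene, knockout or drug is named for any group, and the labels give neither the strain nor the age of the mice. Panc02 is a single line, and its tumours were taken whole, so that the allograft libraries also hold host cells.

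NKG2D is an activating receptor of NK cells and some T cells that has no signalling tail of its own. It signals through DAP10, the product of Hcst, whose motif recruits phosphoinositide 3-kinase and a complex of Grb2 and Vav1. In mice a short NKG2D isoform also pairs with DAP12, the product of Tyrobp, whose tyrosine motif recruits the kinases Syk and Zap70 and which also serves many receptors of macrophages and other myeloid cells. The ligands are relatives of major histocompatibility complex class I proteins that healthy cells show little of and that stressed, infected or transformed cells display. They comprise the RAE-1 proteins (Raet1d, Raet1e), MULT1 (Ulbp1) and the H60 proteins (H60b, H60c).

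The 5 ligand genes lie on chromosome 10 (build GRCm39). Raet1d spans 22236451 to 22250038, Raet1e 22034468 to 22250038 and H60b 22034485 to 22164748, all on the plus strand, so that the annotated Raet1e gene runs across both others. Ulbp1 spans 7390362 to 7423638 and H60c 3206208 to 3217771, on the minus strand. The adaptor genes are neighbours on chromosome 7, Tyrobp at 30113185 to 30117010 on the plus strand and Hcst at 30117137 to 30119279 on the minus strand, with 126 bases between their ends. Klrk1 lies on chromosome 6 at 129587286 to 129600827, on the minus strand. The counts cover the exons of each gene.

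Raet1d and Raet1e are near copies, which limits how well their counts can be told apart. Of the 50-base windows in annotated Raet1d transcripts (GENCODE M21), 55.83% also occur in a transcript of another gene, in each case Raet1e. For Raet1e the share is 44.65%, for H60b 7.58%, for H60c 5.69% and for Ulbp1 1.76%, and for Klrk1, Hcst and Tyrobp it is 0. Exons annotated to Raet1d overlap those of Raet1e over 363 bases, or 25.2% of the Raet1d exons. The near identity reaches into the promoters. RefSeq gives a window from 250 bases before to 50 after the start for 6 of the 8 genes, and at 295 of 298 aligned positions the Raet1d window and one of the Raet1e windows have the same base. The stretches that hold the 3 differing bases, shown to let the copies be compared, read as follows (GRCm38.p6, plus strand, 5′ to 3′, chr10:22361744-22361853 for Raet1d and chr10:22173349-22173458 for Raet1e), with the differing bases in capitals.
Raet1d: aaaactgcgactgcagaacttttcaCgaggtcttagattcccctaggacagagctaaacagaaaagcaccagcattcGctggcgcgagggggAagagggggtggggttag
Raet1e: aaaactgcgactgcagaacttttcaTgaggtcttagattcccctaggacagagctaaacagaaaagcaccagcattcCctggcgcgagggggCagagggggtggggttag
The values of Raet1d and Raet1e are therefore uncertain as separate levels.

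Total counts were 13025549 to 46842646 per library. Levels are CPM (counts scaled to the same library total) when a gene is compared between libraries, and TPM (transcripts, also scaled to exon length) when genes are compared with each other. Exon length covers all annotated exons of a gene, which need not all be in its transcripts. Orders and ratios of genes by TPM therefore depend on the annotation. A gene is said to rise or fall, or to be higher or lower by the test, only where the adjusted p was below 0.05 in the quasi-likelihood test of edgeR with Benjamini-Hochberg adjustment over all genes tested. All adjusted p values below come from that test, and log2 fold changes are given with their standard error (SE). All 12 markers of NK cells were detected in every NK group, with a summed level of 13024 to 14324 CPM in monoculture and 11447 to 12244 CPM in fresh cells. In cultured Panc02 8 of these 12 markers had 0 counts. The labels do not say that the donors were different animals, so p values then rest on the spread among these libraries, which may be technical.

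In NK cells the receptor message was abundant in both conditions. Over both sexes together, Hcst was called higher and Tyrobp lower in culture. Klrk1 stood at 1090 and 1033 CPM in female and 1198 and 1123 CPM in male monocultures, against 1180 and 1158 CPM in female and 1144 and 1090 CPM in male fresh cells. The ranges overlapped and the log2 fold change was 0.06 ± 0.05 (SE, edgeR adjusted p = 0.395). Hcst, the DAP10 gene, had 66.2 and 72.4 CPM in female and 78.5 and 75.5 CPM in male monocultures, against 66.5 and 79.7 CPM in female and 55.7 and 53 CPM in male fresh cells. Over both sexes it rose by 0.32 ± 0.07 on the log2 scale (edgeR adjusted p = 0.00136). No test was run within a sex. In female cells the means of Hcst were 69.3 CPM in monoculture and 73.1 CPM in fresh cells, with overlapping libraries. Tyrobp, the DAP12 gene, had 407 and 371 CPM in female and 449 and 445 CPM in male monocultures, against 438 and 585 CPM in female and 573 and 484 CPM in male fresh cells. It fell by 0.22 ± 0.08 (log2 fold change -0.22, edgeR adjusted p = 0.0438), with 1 fresh library inside the range of the monocultures. That call ended in 6 of the 8 fits that left out a library (adjusted p 0.00115 to 0.202 over the fits, highest without the second fresh female library) and with all 12 NK and co-culture libraries in the fit (0.0704). Fresh and cultured libraries also differ in RNA extraction, by oligo(dT) beads or phenol reagent per the labels' protocols, so that culture and extraction cannot be told apart.

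**Figure D1:**
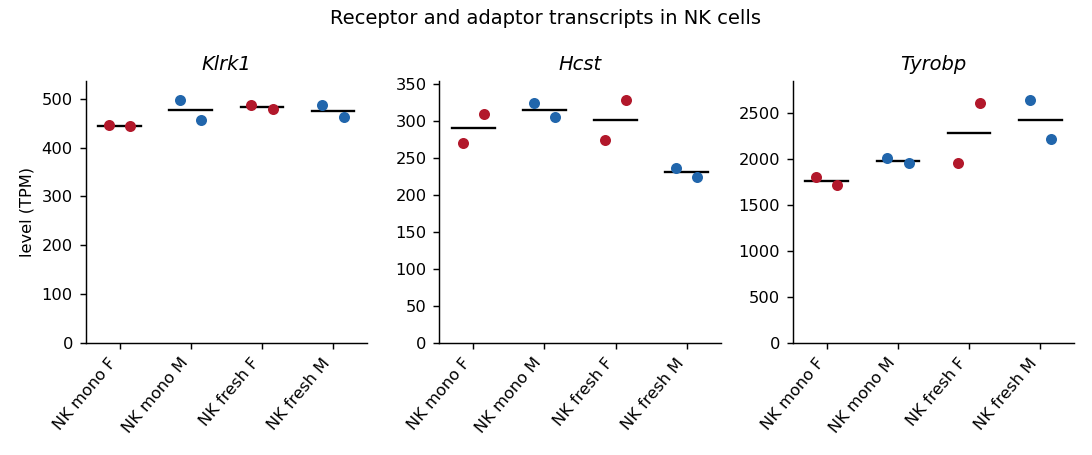
Levels of Klrk1, Hcst and Tyrobp in TPM (vertical axes, each starting at 0) in monocultured (mono) and fresh NK cells of female (F, red) and male (M, blue) donors. Each point is a library and each bar the mean of 2. Klrk1 lies between 443 and 497 TPM in all 8 libraries, and Hcst is lowest in the 2 fresh male libraries.

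Per length of annotated exons, Tyrobp was the most abundant of the receptor complex, Klrk1 next and Hcst lowest, in every NK library. Tyrobp averaged 1867 ± 134 TPM in monoculture and 2349 ± 328 TPM in fresh cells (SD, n = 4 each). The Klrk1 level averaged 461 ± 24.5 TPM in monoculture and 479 ± 11.9 TPM in fresh cells. For Hcst the averages were 302 ± 22.7 TPM in monoculture and 265 ± 46.4 TPM in fresh cells. By TPM there were thus 0.655 ± 0.0389 Hcst transcripts per Klrk1 transcript in monoculture and 0.553 ± 0.0946 in fresh cells (SD, n = 4 each), and 4.05 ± 0.163 Tyrobp transcripts per Klrk1 transcript in monoculture and 4.90 ± 0.677 in fresh cells. These ratios and the order rest on annotated exon lengths of 7183 bases for Klrk1, 722 for Hcst and 667 for Tyrobp.

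NK cells also carried ligand message, nearly all of it Ulbp1. Ulbp1, which encodes MULT1, had 37.3 and 31.9 CPM in female and 43.6 and 30.3 CPM in male monocultures, against 26.1 and 22.1 CPM in female and 31.2 and 28.5 CPM in male fresh cells. Within female cells both monocultures lay above both fresh libraries, and within male cells the ranges overlapped. It rose by 0.51 ± 0.11 on the log2 scale (edgeR adjusted p = 0.00174), and the adjusted p stayed at or below 0.0105 in every fit that left out a library. Ulbp1 made up 90.4% ± 0.709 of the summed TPM of the 5 ligands in monoculture and 97.4% ± 3.22 in fresh cells (SD, n = 4 each). H60b had 9 and 13 counts in female and 28 and 16 counts in male monocultures, or 0.36 to 0.615 CPM, against 0 and 2 counts in female and 4 and 0 counts in male fresh cells. It also rose (log2 fold change 3.03 ± 1.09, edgeR adjusted p = 0.033), but 5 of the 8 fits without a library ended the call (adjusted p 0.0119 to 0.138, highest without the first male monoculture). The log2 fold change was 2.28 without the first fresh female library, 4.95 without the second and 5.10 without the first fresh male library. Cultured Panc02 had 1 count of H60b over its 2 libraries.

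Of the 5 member genes with enough counts to be tested, 4 changed in monoculture (Hcst, Ulbp1 and H60b higher, Tyrobp lower), beside 45.2% of all 19623 genes tested. Higher calls made up 23.1% and lower calls 22% of all genes. H60b had enough counts for the test only through the monocultures, which favours a higher call for it. Raet1d, Raet1e and H60c were not tested in NK cells. Raet1d had 0 to 4 counts in each NK library and H60c had 0 in all. Raet1e had 0, 10, 9 and 14 counts in the monocultures of female 1, female 2, male 4 and male 5 and 0 counts in all 4 fresh libraries, where 3 counts over the group would be 0.0269 CPM. By that floor, its mean of 0.2 CPM in monoculture was at least 7.44-fold higher. The bound covers counting error only and not the spread between libraries, as the monoculture of female 1 also had 0 counts. Those monoculture values equal 0%, 0.666%, 0.469% and 0.79% of the level in cultured Panc02. The summed level of 5 epithelial markers in the same libraries was 0.611%, 0.844%, 0.493% and 0.945% of that in cultured Panc02, against 0.0828% to 0.169% in fresh cells, and its part in the Raet1e counts was not tested.

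Genes that act below the receptor went both ways in culture. Of 23 signalling genes 4 rose and 8 fell, with a median log2 fold change of -0.09 beside 0.01 over all genes. Pik3cd, the leukocyte catalytic subunit of phosphoinositide 3-kinase, rose by 0.57 ± 0.06 (edgeR adjusted p = 4.77e-07), as did the scaffold gene Lcp2, which encodes SLP-76 (0.59 ± 0.06), Lat2 (0.35 ± 0.06) and Rac2, a small GTPase of blood cells (0.17 ± 0.06). The Src-family kinase gene Lck fell by 0.97 ± 0.06 (log2 fold change -0.97, edgeR adjusted p = 1.02e-09), and the phospholipase gene Plcg2 (-0.57 ± 0.06), the regulatory subunit gene Pik3r1 (-0.59 ± 0.07) and Pik3cb (-0.51 ± 0.08) fell as well. Of the kinases that DAP12 recruits, Syk fell slightly (-0.18 ± 0.06, edgeR adjusted p = 0.0176), while Zap70 (-0.02 ± 0.07, adjusted p = 0.865) and the exchange factor gene Vav1 (0.07 ± 0.06, adjusted p = 0.378) did not pass the test.

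Other receptors that pair with DAP12 were lower where they changed. Of 10 such genes 6 were tested, and 3 fell while 0 rose, with a median of -0.81. Klrc2, which encodes NKG2C, fell by 0.92 ± 0.06 (log2 fold change -0.92, edgeR adjusted p = 5.22e-09) and Klra8, the cytomegalovirus receptor Ly49H, by 0.70 ± 0.06 (log2 fold change -0.70). Sirpb1a, a myeloid receptor, also fell (-5.78 ± 1.37). Ly49 genes are near copies of each other, so their counts are uncertain. The dendritic cell markers, summed over 6 genes, were at 268 to 342 CPM in monoculture against 513 to 684 CPM in fresh cells. All 6 were called lower by edgeR, with a median log2 fold change of -4.18, so the sum fell less than the typical marker. C1qa, C1qb, C1qc and Fcgr1 were at 0 in all monocultures and also in the fresh female libraries. The macrophage markers summed to 7.8 to 48.4 CPM in monoculture against 28.3 to 81.9 CPM in fresh cells, with overlapping ranges. Of the 10 macrophage markers 5 were tested, and 2 fell and 0 rose. Their part in the lower Tyrobp and Sirpb1a levels was not tested.

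Genes that regulate the ligands or shed them moved without a common direction. Of 15 regulators 5 rose and 6 fell, with a median of 0.05. The checkpoint kinase genes Chek2 (-2.01 ± 0.17) and Chek1 (-1.34 ± 0.15), which act in the DNA damage response that induces ligands, fell, as did E2f3 (-1.43 ± 0.14), E2f2 (-1.32 ± 0.15) and E2f1 (-1.54 ± 0.27, edgeR adjusted p = 0.00145), the last known to drive Raet1 transcription in mouse cells. The coactivator genes Ep300 (0.36 ± 0.06) and Crebbp (0.22 ± 0.06), Rela, a subunit of NF-kappaB (0.34 ± 0.06), and the heat shock factor gene Hsf1 (0.26 ± 0.07) rose. Erythroid markers moved beside these genes: all 5 tested fell, with a median of -7.83. Their sum was 68 to 95.1 CPM in monoculture against 184 to 352 CPM in fresh cells. It is not particular to erythroid cells, being 398 and 415 CPM in cultured Panc02. The part of erythroid cells in the lower Chek and E2f levels was not tested. Of 9 genes of shedding and turnover 7 were tested, and 2 rose and 2 fell. The membrane protease gene Mmp14 (-5.01 ± 0.22) and Adam10 (-0.14 ± 0.05, edgeR adjusted p = 0.0472) fell, Marchf9 (0.78 ± 0.15) and Adam9 (0.45 ± 0.11) rose, and Adam17 did not pass the test (-0.11 ± 0.06, adjusted p = 0.154).

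Between female and male fresh NK cells, Hcst was the member that differed. Its level was 66.5 and 79.7 CPM in female fresh cells and 55.7 and 53 CPM in male fresh cells, with no overlap. It was higher in female cells by 0.40 ± 0.10 on the log2 scale (edgeR adjusted p = 0.0204), so that 1 of 5 members tested was called, beside 8.59% of all genes (4.03% higher and 4.57% lower). The call ended in 3 of 8 fits without a library (adjusted p 0.0186 to 0.149, highest without the second fresh male library) and with all 12 NK and co-culture libraries in the fit (adjusted p = 0.159). Klrk1 (0.05, adjusted p = 0.775), Tyrobp (-0.07, adjusted p = 0.794), Ulbp1 (-0.31, adjusted p = 0.272) and H60b (-0.42, adjusted p = 0.931) did not pass the edgeR test.

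In fresh cells of female donors 6 of the 23 signalling genes exceeded their level in male ones by the test and 4 were lower, with a median of -0.01 beside 0 over all genes. Lat2 (0.43 ± 0.08), Vav1 (0.42 ± 0.08), the adaptor gene Lat (0.44 ± 0.09) and Pik3cd (0.36 ± 0.08) were higher. Cblb, a ubiquitin ligase that restrains activating receptors, was lower (-0.79 ± 0.08, edgeR adjusted p = 0.000166), as were Sos1 (-0.43 ± 0.10), Rac1 (-0.27 ± 0.07) and Cbl (-0.29 ± 0.08). Of the 15 regulators 4 were lower in female cells and 0 higher (Trp53 at -0.45 ± 0.09, Ep300 at -0.29 ± 0.08, Atm at -0.31 ± 0.09 and Hsf1 at -0.32 ± 0.10), with a median of -0.28. Of the shedding genes Adam10 was lower (-0.34 ± 0.08), and of 6 other DAP12 partners tested 0 were called. The neutrophil markers, summed over 7 genes, were at 17 to 43 CPM in female fresh cells and 112 to 293 CPM in male fresh cells, with 1 of 7 called lower. The erythroid markers, summed over 5 genes, were at 184 and 235 CPM in female and 352 and 323 CPM in male fresh cells, with 3 of 5 called lower. The part of either list in these differences was not tested.

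After monoculture 0 of the 5 members tested differed between the sexes by edgeR, 0 also had an unadjusted p below 0.05 and DESeq2 called 0, beside 0.0764% of all genes (0.0306% higher and 0.0459% lower). The log2 fold changes of female over male monocultures were -0.15 ± 0.07 for Klrk1, -0.17 ± 0.10 for Hcst, -0.23 ± 0.11 for Tyrobp and -0.12 ± 0.16 for Ulbp1. Of the 51 tested genes in the signalling, DAP12 partner, shedding and regulator lists, 0 were called, and 10 had an unadjusted p below 0.05. The sex difference of the response to culture itself was called for Hcst (-0.58 ± 0.14, edgeR adjusted p = 0.0495), 1 of 5 members beside 1.65% of all genes (0.479% positive and 1.17% negative). The balance of these directions depends on the scaling, with 94 genes positive and 229 negative as fitted here, 209 and 186 with median-ratio scaling and 535 and 399 by DESeq2. Hcst levels were 69.3 ± 4.38 CPM in monoculture and 73.1 ± 9.32 CPM in fresh cells of female donors, and 77 ± 2.15 CPM in monoculture and 54.4 ± 1.90 CPM in fresh cells of male donors (SD, n = 2 each). That call ended in all 8 fits without a library (adjusted p 0.0511 to 0.162), with median-ratio scaling (0.0624) and with the 12 libraries in the fit (0.223).

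Among signalling genes the same contrast was called for 4 of 23. The response in female minus that in male cells was positive for Cblb (0.78 ± 0.12, edgeR adjusted p = 0.00582) and negative for Lat2 (-0.67 ± 0.12), Lat (-0.74 ± 0.13) and Lck (-0.52 ± 0.12). Cblb stood at 219 ± 10.6 CPM in monoculture and 167 ± 11.4 CPM in fresh cells of female donors, and at 217 ± 4.10 CPM in monoculture and 286 ± 0.243 CPM in fresh cells of male donors (SD, n = 2 each). Of the other lists, Klra8 (-0.57 ± 0.12) and Atm (0.55 ± 0.12) were called.

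**Figure D2:**
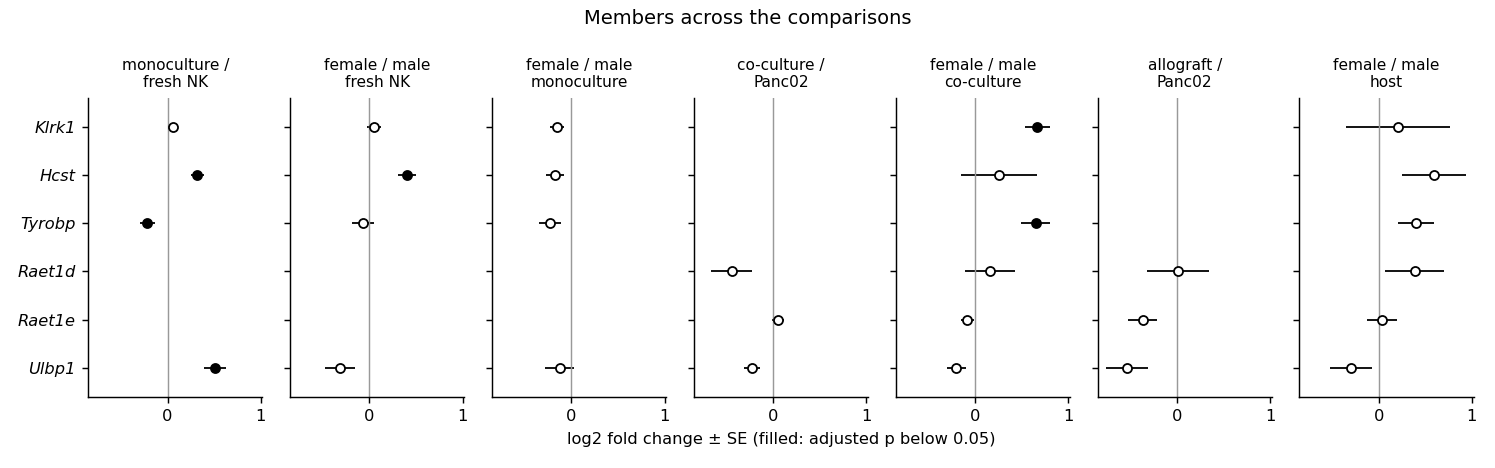
Log2 fold changes with SE (horizontal axis) of the members with at least 1 CPM on average, in 7 comparisons, first-named over second-named group. Filled points have an edgeR adjusted p below 0.05, and members with 0 counts in cultured Panc02 or not tested are left out. Hcst is called in monoculture over fresh cells (0.32) and in female over male fresh cells (0.40), and no member is called between female and male hosts.

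In co-culture the receptor complex was detected at low levels, beside other transcripts of NK cells. Klrk1 had 28.3 and 37 CPM with female and 22.4 and 18 CPM with male NK cells, and 0 counts in both libraries of cultured Panc02, where 3 counts over the group would be 0.0337 CPM. Hcst had 2.12 and 1.52 CPM with female and 2.1 and 0.92 CPM with male NK cells, and Tyrobp 12.7 and 15.3 CPM with female and 9.52 and 8.04 CPM with male NK cells. Both had 0 counts in cultured Panc02. Klrk1 was at least 784-fold, Hcst at least 49.3-fold and Tyrobp at least 338-fold higher than in cultured Panc02. These bounds cover counting error only. By edgeR 3 of 6 members tested were called, beside 18.3% of all genes (12.2% higher and 6.12% lower). The 3 were Klrk1, Hcst and Tyrobp, which had enough counts for the test only through the co-cultures. Their calls therefore add nothing to their presence in the co-cultures, and their number is no result about the members.

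Set against monocultures of the same sex, Klrk1 was at 2.67% and 3.48% with female and 1.93% and 1.55% with male NK cells. Hcst was at 3.06% and 2.19% with female and 2.72% and 1.195% with male NK cells, from only 42 to 95 counts per library. For Tyrobp the values were 3.28% and 3.92% with female and 2.13% and 1.80% with male NK cells. The median of the 12 NK markers was 2.84% and 3.42% with female and 1.96% and 1.70% with male NK cells, with single markers between 1.04% and 9.91%. Klrk1 and Tyrobp thus lay inside the range of the markers in all 4 co-culture libraries. Hcst did so in 3 and lay below the lowest marker (2.33%) in the second female one. The summed level of the 5 epithelial markers in these libraries, labelled as NK cells, was 97.5% to 101% of that in cultured Panc02. Fewer NK cells and less of a transcript per NK cell cannot be told apart in these mixtures, and the labels do not say that the cell types were separated. Transcripts of Tyrobp per Klrk1 transcript were 4.67 ± 0.189 in co-culture and 4.05 ± 0.163 in monoculture (SD, n = 4 each), and those of Hcst 0.648 ± 0.236 in co-culture and 0.655 ± 0.0389 in monoculture.

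**Figure D3:**
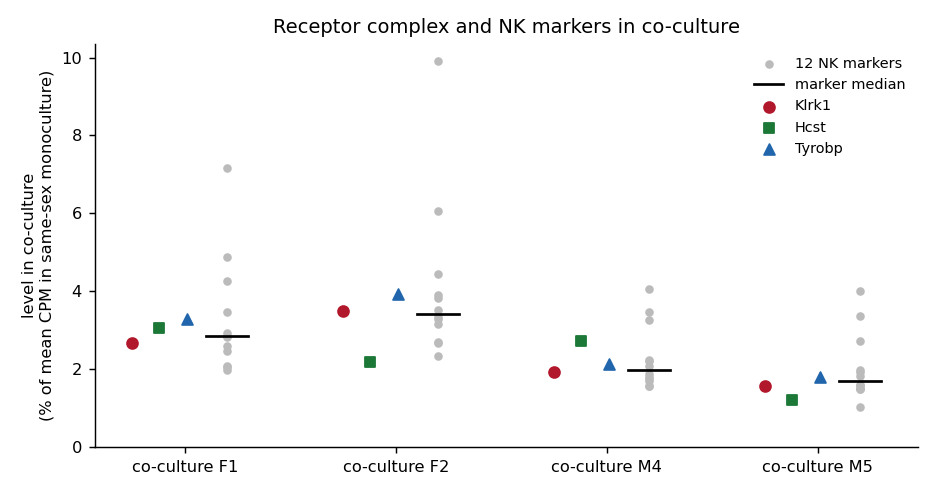
Level in each co-culture library as a percentage of the mean CPM in monocultures of the same sex (vertical axis), for Klrk1, Hcst, Tyrobp and 12 markers of NK cells (grey points, black bar at their median). F and M give the sex of the NK donors and the digit the sample number. Klrk1 and Tyrobp are higher in both female libraries than in both male ones.

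Between co-cultures with female and with male NK cells, Klrk1 and Tyrobp were higher with female NK cells. Klrk1 differed by 0.67 ± 0.13 on the log2 scale (edgeR adjusted p = 0.0174) and Tyrobp by 0.65 ± 0.16 (edgeR adjusted p = 0.0479), with no overlap between the groups, so that 2 of 6 members were called, beside 1.14% of all genes (0.985% higher and 0.154% lower). Hcst did not pass the test (0.26, adjusted p = 0.869), nor did Raet1d (0.16), Raet1e (-0.08) or Ulbp1 (-0.20). The 12 NK markers had a median difference of 0.64, and 4 of them were called higher. The differences of Klrk1 and Tyrobp were close to that median, and the part of NK cell number in them was not tested apart from it. By DESeq2 Klrk1 was called (adjusted p = 0.00486) and Tyrobp was not (0.0802). The call of Klrk1 ended in 2 of 6 fits without a library (adjusted p 0.000471 to 0.212, highest without the second male library) and that of Tyrobp in 4 (0.0436 to 0.371, highest without the same library). Of the signalling genes Rac2 (0.59 ± 0.10), Pik3cd (0.67 ± 0.13), Cblb (0.35 ± 0.08) and Vav1 (0.94 ± 0.22) were higher with female NK cells and 0 were lower. Of the DAP12 partner, shedding and regulator genes 0 were called, and 4 of the 28 tested had an unadjusted p below 0.05.

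Panc02 cells expressed RAE-1 as their main ligand message, and in co-culture 0 of 3 ligands tested changed by edgeR (1 had an unadjusted p below 0.05, and DESeq2 called 0). Raet1e had 38.3 and 43.3 CPM in co-culture with female and 42.6 and 42.1 CPM with male NK cells, against 41.4 and 41.7 CPM in cultured Panc02. Its log2 fold change was 0.05 ± 0.06 (edgeR adjusted p = 0.611), or 0.02 when its counts were summed with those of Raet1d. Raet1d had 2.45 and 2.86 CPM in co-culture with female and 2.97 and 1.75 CPM with male NK cells, against 3.42 and 3.61 CPM in cultured Panc02 (-0.44 ± 0.22, edgeR adjusted p = 0.186). Ulbp1 had 16.4 and 19 CPM in co-culture with female and 20.2 and 19.8 CPM with male NK cells, against 23.9 and 21.8 CPM in cultured Panc02. All 4 co-culture libraries lay below both Panc02 libraries for Raet1d and for Ulbp1, but Ulbp1 did not pass the test either (-0.23 ± 0.09, edgeR adjusted p = 0.0731). It was called in 1 of 6 fits without a library, that without the second female co-culture (adjusted p 0.035 to 0.482 over the fits). Scaled by the median NK marker, the Ulbp1 message of NK cells would account for 0.629 to 1.18 CPM of these levels. H60b had 0 or 1 count in each of these 6 libraries and H60c had 0.

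Per transcript length, Raet1e stood at 56.8 ± 2.81 TPM in co-culture (SD, n = 4) and 58.1 ± 0.282 TPM in cultured Panc02 (SD, n = 2). Ulbp1 stood at 8.27 ± 0.712 TPM in co-culture and 10.2 ± 0.677 TPM in cultured Panc02, and Raet1d at 5.13 ± 1.11 TPM in co-culture and 7.36 ± 0.287 TPM in cultured Panc02. Raet1e made up 80.9% ± 1.17 of the summed ligand TPM in co-culture and 76.7% ± 0.439 in cultured Panc02. The order in cultured Panc02 was thus Raet1e, Ulbp1, Raet1d, with each value outside the spread of the next.

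Of the ligand regulators, Atr was lower in co-culture than in cultured Panc02 (-0.24 ± 0.05, edgeR adjusted p = 0.00348), 0 were higher, and the median was 0.01. Of the shedding genes Adam17 (0.18 ± 0.04, edgeR adjusted p = 0.00326), which cleaves many surface proteins, Adam10 (0.16 ± 0.04, adjusted p = 0.00813) and Mmp14 (0.12 ± 0.04, adjusted p = 0.0205) were higher and 0 were lower. Of the signalling genes 13 of 23 were higher, led by Rac2 (8.71 ± 0.22), Pik3cd (5.24 ± 0.19), Lck (5.67 ± 0.27) and Vav1 (7.63 ± 0.44), which had 2 to 59 counts over both Panc02 libraries. These genes are also expressed in the monocultured NK cells, and whether their message in the mixture came from NK cells or from Panc02 was not tested. Vav2 was lower (-0.20 ± 0.06). Syk (1.40 ± 0.19) and Zap70 (7.12 ± 0.51) were higher as well. Of the DAP12 partners Klrc2 was at least 125-fold higher, and Klra8 (9.12 ± 0.34) and Klra4 (0.93 ± 0.10) were higher.

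**Figure D4:**
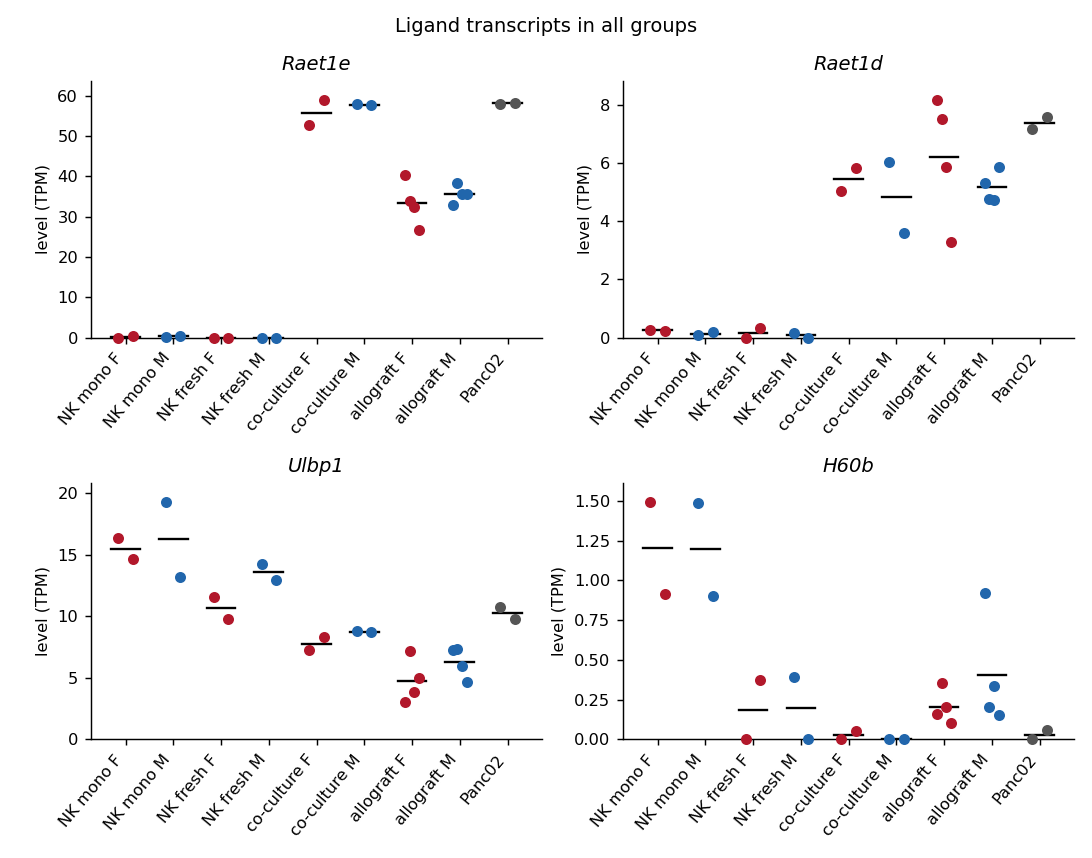
Levels of Raet1e, Raet1d, Ulbp1 and H60b in TPM (vertical axes, each starting at 0) in all 22 libraries by group, with a bar at each group mean. Red points have female and blue points male NK donors or hosts. Raet1e and Raet1d are near 0 in NK cells, while Ulbp1 has its highest group mean in monocultured NK cells, at 13.2 to 19.3 TPM per library.

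In whole allografts both adaptor genes stood higher relative to the receptor gene, per transcript length, than in NK cells. Tyrobp had 171 to 392 CPM in the 8 allografts (median of 4 at 245 in female and 222 in male hosts), against 0 counts in cultured Panc02. Klrk1 had 20.6, 4.02, 3.06 and 10.2 CPM in female and 9.77, 6.25, 10.8 and 7.19 CPM in male hosts, and Hcst 12.8, 5.16, 10.5 and 4.95 CPM in female and 5.99, 4.23, 7.31 and 5.27 CPM in male hosts. By edgeR all 3 were higher than in cultured Panc02 (adjusted p = 5.59e-08 for Tyrobp, 0.000206 for Klrk1 and 5.58e-06 for Hcst), at least 7300-fold, 267-fold and 208-fold. In this comparison 3 of 6 members were called, beside 62.1% of all genes (38.8% higher and 23.3% lower), and the median log2 fold change of all genes was 0.42. The 3 were Tyrobp, Klrk1 and Hcst, all with 0 counts in cultured Panc02, which had enough counts for the test only through the allografts. Their calls therefore add nothing to their presence in the tumours, and their number is no result about the members. Per length, the allografts held 381 ± 230 Tyrobp transcripts per Klrk1 transcript (205 to 857) and 10.6 ± 9.78 Hcst transcripts (4.83 to 34.1, SD, n = 8), against 4.05 ± 0.163 and 0.655 ± 0.0389 in monocultured NK cells (SD, n = 4). The ranges of both ratios did not overlap. Values of allografts come from a table separate from that of the NK cells, co-cultures and cultured Panc02, counted in the same way. Where allografts are compared with these, tissue and table cannot be told apart.

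Markers of myeloid and T cells stood beside these levels. All 10 macrophage markers were detected, with a summed level of 4348 to 7998 CPM in female and 3951 to 5778 CPM in male hosts, against 16.3 and 16.7 CPM in cultured Panc02. T cell markers summed to 72.6 to 183 CPM in female and 86.4 to 144 CPM in male hosts, against 0.555 and 0.38 CPM in cultured Panc02. NK markers summed to 33.7 to 127 CPM in female and 39.8 to 83.8 CPM in male hosts, against 18 and 20.1 CPM in cultured Panc02. By edgeR 11 of the 12 NK markers were higher in allografts and 1 was lower. The part of Panc02 message in the NK marker sum was not tested. Across the 8 allografts Klrk1 followed the NK markers (Pearson's r = 0.898 on log2(CPM + 1), Spearman's rho = 0.929, exact permutation p = 0.00228 and 0.00223, and 0.0205 and 0.0201 after Benjamini-Hochberg adjustment over 9 relations). Without the 2 allografts farthest from the median of the NK markers r was 0.792. Tyrobp followed the macrophage markers (r = 0.873, rho = 0.643, exact permutation p = 0.0116 and 0.0962, adjusted 0.0382 and 0.173), but r was 0.275 without the 2 farthest allografts, so that this relation rests on those samples. Tyrobp also followed the T cell markers (r = 0.765, rho = 0.905, exact permutation p = 0.0127 and 0.00456, adjusted 0.0382 and 0.0205), with r at 0.818 without 2. The other 6 relations of Klrk1, Hcst and Tyrobp with the NK, macrophage and T cell markers did not pass after adjustment. All 9 were chosen after their values were seen, and other marker lists and members were correlated over the same allografts. Their p values therefore do not measure chance and are given as a description. Hosts of each sex number 4, too few for these relations within a sex.

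**Figure D5:**
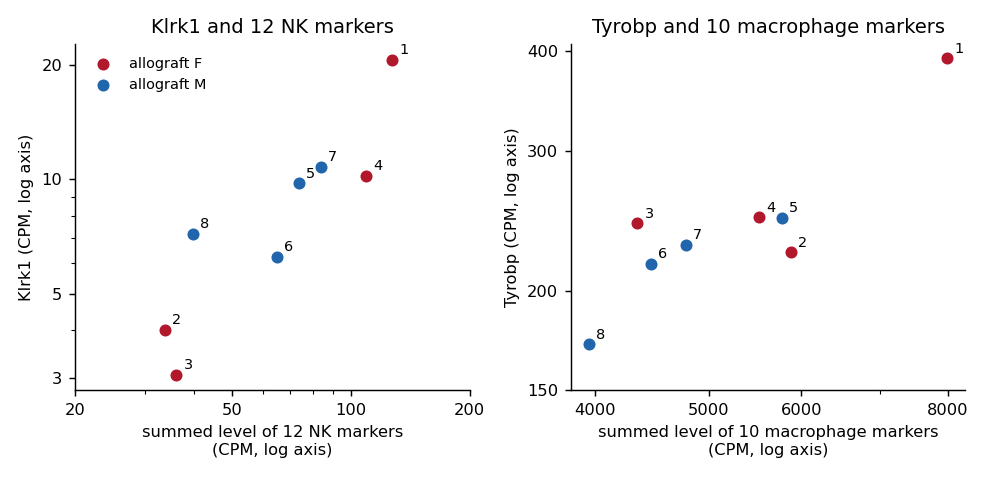
Klrk1 against the summed level of 12 NK markers, and Tyrobp against that of 10 macrophage markers, in CPM on log axes. Each point is an allograft, numbered by sample and coloured by host sex (F female, M male). The first female allograft has the highest value of both genes, 20.6 CPM of Klrk1 and 392 CPM of Tyrobp.

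In allografts Raet1e and Ulbp1 lay below cultured Panc02 in every library without passing the test, and Raet1d overlapped with it. Raet1e had 39.2, 29, 32.4 and 22.9 CPM in female and 28.3, 31.7, 31.4 and 32.1 CPM in male hosts, against 41.4 and 41.7 CPM in cultured Panc02. No allograft reached the level of cultured Panc02, and the log2 fold change was -0.36 ± 0.16 (edgeR adjusted p = 0.0635). Ulbp1 had 9.27, 19.1, 12 and 13.3 CPM in female and 19.4, 19, 16.3 and 13 CPM in male hosts, against 23.9 and 21.8 CPM in cultured Panc02. Again the groups did not overlap (-0.54 ± 0.23, edgeR adjusted p = 0.0614). Both genes were called lower with median-ratio scaling (-0.40 and -0.57, adjusted p = 0.0392 and 0.0485), without the filter on low counts and with the co-cultures in the fit, so that the call depends on the processing. Raet1d had 5.27, 4.29, 3.9 and 1.87 CPM in female and 3.04, 2.64, 2.79 and 3.53 CPM in male hosts, against 3.42 and 3.61 CPM in cultured Panc02 (0.01 ± 0.33, edgeR adjusted p = 0.98), with overlapping groups.

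A bulk tumour level also depends on the share of tumour cells. Raet1e in allografts was at 55.1% to 94.4% of cultured Panc02, Ulbp1 at 40.6% to 85.2% and Raet1d at 53.2% to 150%, while the summed level of the 5 epithelial markers was at 21.5% to 53.5%. Fewer tumour cells and less message per tumour cell cannot be told apart, nor can a difference between the count tables. The order of the ligands per length was Raet1e at 34.5 ± 4.12 TPM, then Raet1d at 5.68 ± 1.57 TPM and Ulbp1 at 5.53 ± 1.65 TPM (SD, n = 8), with the last 2 within each other's spread. Raet1e made up 74.9% ± 3.13 of the ligand TPM in allografts (n = 8), against 76.7% ± 0.439 in cultured Panc02 (n = 2). H60b had 2 to 15 counts per allograft, against 0 and 1 in cultured Panc02. H60c, described from mouse skin, had 19 counts in all, in 4 of the 8 allografts and in no other library, and 13 of them came from 1 male host. Neither H60b nor H60c had enough counts for the test.

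Of 23 signalling genes 15 were higher and 4 lower in allografts than in cultured Panc02. Rac2 (10.44 ± 0.37), Vav1 (11.09 ± 0.45), Syk (5.11 ± 0.22, edgeR adjusted p = 5.19e-08) and Pik3cd (6.12 ± 0.34) led the higher ones, and Zap70 was higher too (8.19 ± 0.77). Pik3cb (-1.63 ± 0.11), Sos1 (-1.59 ± 0.15), Crk (-1.01 ± 0.13) and Cbl (-0.70 ± 0.17) were lower. Of 10 DAP12 partners 8 were higher, among them the macrophage receptor genes Trem2 (5.89 ± 0.26), Trem1 (6.72 ± 0.91), Clec5a (at least 451-fold) and Sirpb1a (at least 339-fold), and Siglec15 was lower (-3.94 ± 0.54). Of 15 ligand regulators 11 were lower and 0 higher, with a median of -0.83 beside 0.42 over all genes. Chek1 (-2.31 ± 0.16), Atr (-1.69 ± 0.14), E2f3 (-1.38 ± 0.13), Atm (-1.93 ± 0.20) and E2f1 (-0.62 ± 0.16) were among them. Of 9 shedding genes the metalloproteinase genes Mmp14 (1.70 ± 0.16), Mmp2 (at least 16800-fold) and Mmp9 (9.89 ± 1.2) were higher, Marchf9 (-1.21 ± 0.25) and Adam9 (-0.39 ± 0.12) were lower, and Adam10 (-0.25, adjusted p = 0.43) and Adam17 (-0.24, adjusted p = 0.15) did not pass the test.

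Between female and male hosts 0 of 6 members tested were called by edgeR, 0 had an unadjusted p below 0.05 and DESeq2 called 0, beside 0.0146% of all genes. The log2 fold changes of female over male hosts were 0.21 ± 0.56 for Klrk1, 0.59 ± 0.34 for Hcst, 0.40 ± 0.20 for Tyrobp, 0.39 ± 0.31 for Raet1d, 0.04 ± 0.16 for Raet1e and -0.30 ± 0.23 for Ulbp1. Without the first female allograft that of Klrk1 was -0.49. Of the 56 pathway genes tested 0 were called, and 14 had an unadjusted p below 0.05. The spread between allografts was wide, with a biological coefficient of variation of 0.364, against 0.156 in NK cells.

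The genes most like each member were sought among 12249 genes over all 22 libraries, where the likeness is set by differences between NK cells, Panc02 and tumours. Klrk1 was most like Klrd1 (r = 0.997), Il18r1 and Nkg7, genes of NK cells. Hcst was most like B3gnt7 (r = 0.993), Trim12a and Rgs14, and Tyrobp most like Cd52 (r = 0.997), Tap1 and Tap2. Raet1e was most like Rab34 (r = 0.999), Pls3 and Ier5l, Raet1d most like Fam83f (r = 0.979), Tkfc and Bmp4, and Ulbp1 most like Ice1 (r = 0.937), Htt and Mia3. Over the 8 allografts alone, which share host and tumour tissue, the nearest of 12382 genes were Psmb10 for Klrk1 (r = 0.975), Rhog for Hcst (r = 0.996), Arhgdib for Tyrobp (r = 0.979), Tmem29 for Raet1d (r = 0.972), Stx8 for Raet1e (r = 0.972) and Aak1 for Ulbp1 (r = 0.987). These are values of log2(CPM + 1), given as a description.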

How the data were processed

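Whole-number read counts per gene were deposited by the authors, not normalised. The build was GRCm39, and the tools are listed, without roles, as HISAT2 2.2.1, cutadapt 4.4, featureCounts 2.0.6 and SAMtools 1.19.2 in the submitters' processing notes. Per the file headers, counting used Ensembl exons on the reverse strand, counted each mate on its own and counted multi-mapping reads, so paralogs share reads. Gene exon lengths (other columns) were also deposited by the authors. Genes were matched to symbols through a reference table (51498 of 78298 IDs). Of genes with 1 to 20 counts, 66.4% to 78.6% had an even count. CPM, TPM, ratios and percentages were computed from the counts, and libraries were grouped by their labels. Tests used edgeR 4.0.16 in R 4.3.3 (quasi-likelihood, robust, TMM, filterByExpr, Benjamini-Hochberg at 0.05) in 4 fits: 8 NK libraries, co-cultures with cultured Panc02, allografts with cultured Panc02, and allografts alone. The co-culture and allograft comparisons with cultured Panc02 share its 2 libraries. Fold bounds use a floor of 3 counts over a group and may be too high, as mates were counted singly. Named genes were the 8 members, up to 4 called genes per direction by smallest p from each of 4 pathway lists, Syk, Zap70, Vav1, Adam10, Adam17 and E2f1, and the most alike genes with a mean of at least 5 CPM. The members, lists and rule were chosen with earlier results of these data known, and the relations with marker sums after their values were seen. Alternatives were median-ratio scaling, no filter, DESeq2 1.42.0, other sets of libraries, a block, Raet1d and Raet1e summed, and leaving out each library. The scripts were tested on simulated data.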

Additional observations from a re-analysis of the deposited data

Results flagged for a closer look

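Among 16 sets of 4 allografts (8 genes by 2 host sexes), Tyrobp and Raet1e each had 1 set in which a library's gap to the nearest other exceeded the Dixon limit of 0.829 of the range. Chance alone gives about 1 such set in 20. Tyrobp stood at 392 CPM in the first female allograft, above 224 to 247 CPM in the other 3 females. Raet1e stood at 28.3 CPM in the first male allograft, below 31.4 to 32.1 CPM in the other 3 males. H60c stood at 0.0487 CPM in the second female allograft, from 2 counts, while the other 3 females had 0, so that its gap fills the whole range by construction and says nothing more. The response of Hcst to monoculture differed between the sexes by edgeR's interaction test with Benjamini-Hochberg adjustment (-0.5766 on the log2 scale, female minus male, adjusted p = 0.0495), a call that ended without any 1 of the 8 libraries (adjusted p 0.0511 to 0.162).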

How the results depend on the processing

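The cause of each move given here was not tested. Monoculture against fresh cells had 5 members called without the filter in place of 4. The sex difference of the response to monoculture had 0 members in place of 1 with median-ratio scaling and with 12 libraries in the fit, and female against male fresh cells 0 in place of 1 with 12 libraries. Co-culture with female against male NK cells had 1 member (Klrk1) by DESeq2 in place of 2. Allografts against cultured Panc02 had 5 members in place of 3 with median-ratio scaling, without the filter and with the co-cultures in the fit, where Raet1d was at -0.0233, -0.0619 and -0.107 (-0.0267 by DESeq2) in place of 0.01. Over all genes, female against male monocultures gave 109 calls without the filter, 42 by DESeq2 and 23 with 12 libraries in place of 15. The sex difference of the response gave 872, 934 and 546 in the same order and 490 with the replicate block in place of 323. Co-culture with female against male NK cells gave 422 without the filter in place of 207, and female against male hosts 14 without the filter and 544 by DESeq2 in place of 3. Whether shared sample numbers mark paired libraries cannot be settled with 2 libraries per group, and the main tests leave the number out. Deviations from the group means correlated at 0.0304 in female and 0.195 in male cells between monoculture and fresh cells. With the number as a block the members called in monoculture against fresh cells were 3 in place of 4, Tyrobp being at -0.21 (adjusted p = 0.092).

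Leaving out 1 library at a time gave 2 to 4 members for monoculture against fresh cells, 3 to 4 for co-culture against cultured Panc02 (Ulbp1 added without the second female co-culture), 3 to 4 for allografts against cultured Panc02, 0 to 1 for female against male fresh cells, 0 in every fit for the sex difference of the response, and 0 to 2 for co-culture with female against male NK cells. Calls over all genes were 537 to 1918 for the sexes in fresh cells, 18 to 29 in monoculture, 115 to 612 for the sex difference of the response, 1527 to 3530 for co-culture against cultured Panc02, 97 to 215 for the sexes in co-culture and 0 to 4 for host sex. Directions that turned had the following ranges. For host sex Klrk1 was at -0.49 to 0.52 and Raet1e at -0.10 to 0.15, and for allografts against cultured Panc02 Raet1d was at -0.0902 to 0.12. For the sexes in co-culture Hcst was at -0.23 to 0.95, Raet1d at -0.19 to 0.57 and Raet1e at -0.19 to 0.0115. In fresh cells H60b was at -4.27 to 3.81, Klrk1 at -0.0431 to 0.0702 and Tyrobp at -0.28 to 0.0535. In monoculture H60b was at -0.47 to 0.32 and Ulbp1 at -0.37 to 0.15. For the sex difference of the response H60b was at -3.89 to 4.18, Tyrobp at -0.28 to 0.0436 and Ulbp1 at -0.0537 to 0.47. Summing Raet1d and Raet1e changed no count of members called. H60b and H60c had too few counts in allografts and Panc02 for a test.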
